A study of Mus musculus with 14 samples.

Results

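The loci described here are protein-coding loci that were near silent in wild-type mouse embryo heads and were detected in Zcchc8 -/- heads. A locus was taken when it carried a single gene name typed as protein-coding, a mean level under 0.2 FPKM (fragments per kilobase of transcript, scaled to the library's mapped fragments) over the wild-type libraries and a mean of at least 0.5 FPKM over the knockout libraries, with histone and Hox names left out. There were 248 such loci among 67811 in the deposited tables, and among 18733 loci that had a single protein-coding name and were eligible. They carried 246 different names, since Smc1b and Ppp1r27 each appeared with 2 loci. Another 6344 eligible loci were under 0.2 FPKM in wild type and stayed under 0.5 FPKM in the knockout. The members were thus chosen by their mean FPKM in wild-type and knockout libraries. Their difference between those groups is given below as a description. The rule did not use the heterozygous libraries, the strand, the surroundings or the other loci of the same gene. Comparisons of heterozygous with wild-type or knockout libraries still use values that chose the members. The share of opposite-strand loci also varied with the wild-type level.

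Whole heads, brains included, were taken from E12.5 embryos (embryonic day) of C57BL/6J mice of 3 Zcchc8 genotypes: 5 wild-type (+/+), 3 heterozygous (+/-) and 6 knockout (-/-) libraries, here WT1 to WT5, HET3 to HET5 and KO1 to KO6. Total RNA was made into stranded mRNA libraries, a preparation that selects polyadenylated RNA. The labels give no treatment, litter, sex or batch, and do not describe the Zcchc8 allele. A whole head holds many cell types, so a change in the number of cells of a type and a change in RNA per cell cannot be told apart.

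Zcchc8 is the zinc-knuckle scaffold of the nuclear exosome targeting (NEXT) complex, which it forms with the RNA-binding protein Rbm7 and the helicase Skiv2l2 (also called Mtr4). NEXT hands short-lived nuclear transcripts, such as promoter upstream transcripts that run away from active gene starts, enhancer RNAs and extended small nuclear RNAs, to the RNA exosome for degradation. These RNAs are normally scarce at steady state.

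The libraries matched their labels for the targeted gene. The Zcchc8 locus (chr5:123698294-123721100, mm10) stood at 39.7 ± 2.32 FPKM in wild type (SD, n = 5), 25.7 ± 1.64 in heterozygous heads (n = 3) and 15.5 ± 3.91 in knockout heads (n = 6), 39.1% of wild type. The knockout difference was -1.39 on the log2(FPKM + 0.1) scale (SE 0.15, adjusted p = 2.1e-06, limma-trend), and no knockout library (highest 20.6 FPKM) reached a wild-type library. Relative depth, read as the commonest ratio of the lowest values of the same loci, ran from 1.0 to 1.49 across libraries, and KO4 was the deepest. KO1 and KO3 had 28310 and 28450 loci above 0 FPKM, close to the wild-type libraries (26902 to 27622), whereas the other knockout libraries had 31237 to 32667. Over the 18217 loci tested, 19.0% were higher and 5.61% lower in knockout than in wild-type heads (limma-trend, Benjamini-Hochberg adjusted p under 0.05). Head genes chosen as a tissue check (Sox2, Nes, Pax6 and others) were all expressed, summing to 701 to 805 FPKM in wild type, and Sox2, in a locus that also holds Sox2ot, was alone among 9 tested in passing the test (higher, 68.0 to 79.9 FPKM).

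Most of the gained loci did not lie on the strand of the gene they were named for. The tables give each locus a range that it may share with other loci, and 242 of the 248 shared theirs. Locus numbers run up each chromosome 3 times, once per strand and once for loci with no strand, so the strand could be read from the numbering. For 22137 loci that were no members and were the only locus of their name, this strand matched the GENCODE annotated strand in 22136 (99.995%). By this reading 191 of the 248 gained loci (77.0%) lay opposite to their named gene, 36 (14.5%) lay on the gene's own strand, 20 (8.06%) had no strand, and 1, Spag6l, could not be placed. Among the 6344 near-silent loci that were not gained, 22.4% were opposite and 76.8% on the gene's strand, and among 12141 loci with at least 0.2 FPKM in wild type 4.60% were opposite. Taking the strand from the locus of the same name with the highest wild-type level, in place of the annotation, gave 196 opposite loci. The sources used here do not state the strand setting of the counting.

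**Figure D1:**
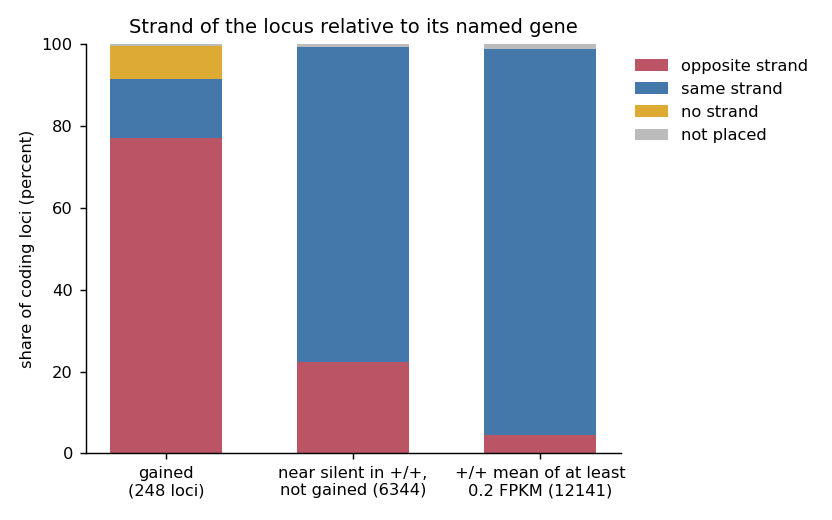
Share of coding loci (percent, y axis) by the strand of the locus relative to the gene it is named for, in 3 sets of loci (x axis). Opposite-strand loci made up 77.0% of the gained loci, 22.4% of the near-silent loci that were not gained and 4.60% of the loci at 0.2 FPKM or more in wild type.

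By position, 210 of the 248 were not the main locus of their name, 7 were the main locus among several and 31 were the only locus. The main locus was taken as the widest of the name, with ties (loci that share a range) broken by the wild-type level. In 217 cases another locus of the same name, called the partner below, lay in the same range. The opposite-strand loci comprised 188 non-main and 3 main loci, all 20 loci without strand were non-main, and the own-strand loci comprised 30 sole, 4 main and 2 non-main loci. Within 10 kb, 246 of the 248 had another locus, 236 had a locus of another name, 94 had an unnamed locus and 14 had another gained locus. Cd300c and Fasl alone had none.

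Start regions help to show where such ranges reach. Of the 191 opposite-strand gained loci, 76 had a range that held exactly 2 loci, the gained locus and a partner, and a single annotated gene to measure from. In 55 of these 76 (72.4%) the range reached more than 100 bases past the annotated 5′ end of the gene, and in 21 (27.6%) past its 3′ end, with 8 doing both and 8 neither. The median reach past the 5′ end, where it passed 100 bases, was 2426 bases. Opposite-strand loci in ranges of 2 loci that were near silent in wild type and not gained reached past the 5′ end in 41.2% of 519 cases and past the 3′ end in 25.4%. Coding loci alone in their range did so in 6.36% and 3.97% of 7454 cases. The tables do not say which of the 2 loci in a range extends it. The 150 bases before the start of 4 such genes, those with the highest knockout level whose RefSeq and GENCODE starts lie within 10 bases, are shown because the range reached past this start: by 2047 bases for Pyurf, which shares its transcript with Pigy, a subunit of the enzyme that starts GPI anchor synthesis, 3479 for Zkscan8, a zinc finger protein, 1375 for Slc22a15, an organic ion transporter, and 5968 for Cipc, a CLOCK-interacting protein. Ssmem1 and Htr3b follow as the own-strand sole loci with the highest level under the same rule. Sequences are RefSeq, GRCm38.p6, 5′ to 3′ on the gene's strand, and capitals mark CG dinucleotides.
Pyurf: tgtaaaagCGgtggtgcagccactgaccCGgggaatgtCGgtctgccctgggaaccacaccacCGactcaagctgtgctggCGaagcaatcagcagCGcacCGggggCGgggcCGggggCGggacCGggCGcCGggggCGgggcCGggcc
Zkscan8: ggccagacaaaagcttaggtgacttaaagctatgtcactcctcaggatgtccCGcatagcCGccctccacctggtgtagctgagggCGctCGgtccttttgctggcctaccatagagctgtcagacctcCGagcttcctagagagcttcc
Slc22a15: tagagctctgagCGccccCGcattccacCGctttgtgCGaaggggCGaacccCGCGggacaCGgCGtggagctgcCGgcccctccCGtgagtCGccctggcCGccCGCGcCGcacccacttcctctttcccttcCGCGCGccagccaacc
Cipc: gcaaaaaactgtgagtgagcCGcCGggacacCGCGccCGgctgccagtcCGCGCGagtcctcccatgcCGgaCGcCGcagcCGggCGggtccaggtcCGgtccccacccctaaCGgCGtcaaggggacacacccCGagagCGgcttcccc
Ssmem1: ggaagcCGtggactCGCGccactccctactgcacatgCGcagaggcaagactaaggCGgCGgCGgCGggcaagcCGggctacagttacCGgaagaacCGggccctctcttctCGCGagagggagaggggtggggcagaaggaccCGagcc
Htr3b: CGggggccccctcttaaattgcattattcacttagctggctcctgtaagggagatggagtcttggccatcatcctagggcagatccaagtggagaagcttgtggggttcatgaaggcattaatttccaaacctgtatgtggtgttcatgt

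These stretches lie at chr6:57692079-57692228 (Pyurf, minus strand), chr13:21531115-21531264 (Zkscan8, minus strand), chr3:101924454-101924603 (Slc22a15, minus strand), chr12:86946891-86947040 (Cipc, plus strand), chr6:30509699-30509848 (Ssmem1, plus strand) and chr9:48964991-48965140 (Htr3b, minus strand). They hold 15, 5, 19, 18, 14 and 1 CG dinucleotides in that order. RefSeq gave a start region of 300 bases (250 before and 50 after the start) for 201 gained loci. The median was 20 CG dinucleotides for the 159 genes with an opposite-strand gained locus, 7 for the 25 with an own-strand gained locus, and 7 over all 32851 start regions. The letters CCGCCC, the core of a GC box, were found on either strand in 66.0%, 32.0% and 35.7% of these sets, and TATAAA in 8.81%, 16.0% and 13.6%. A match is a description of the letters only. The last set was not chosen by level, whereas the partners of the opposite-strand loci had a median of 15.7 FPKM in wild type. Start regions of expressed genes, or of opposite-strand loci that were not gained, were not compared.

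The gained loci were at a median of 0.0601 FPKM in wild type, 0.0647 in heterozygous and 0.860 in knockout heads, values of which the first and last follow from the rule. By library, the median over the 248 loci was 0.036 to 0.049 FPKM in wild type, 0.044 to 0.051 in heterozygous heads and 0.642 (KO1) to 0.985 (KO5) in knockout heads. The number of loci at 0.5 FPKM or more was 0 to 2 in wild-type, 3 or 4 in heterozygous and 159 (KO1) to 216 (KO5) in knockout libraries. KO1, which had the lowest Zcchc8 level (9.27 FPKM), had the fewest, and KO5, with the highest Zcchc8 level (20.6 FPKM), the most. In knockout heads 101 loci averaged 1 FPKM or more and 29 averaged 2 or more. In wild type 29 were at 0 in every library and 126 were above 0 in every library.

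**Figure D2:**
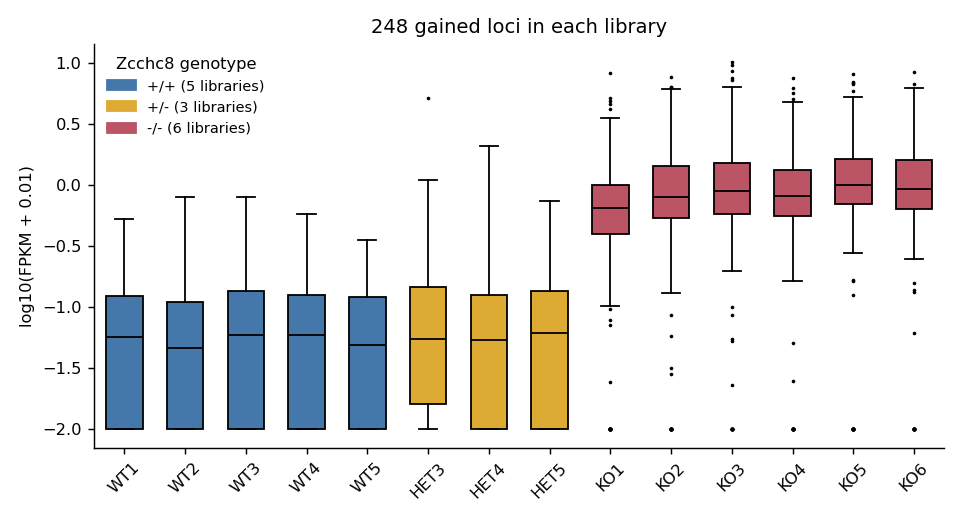
Levels of the 248 gained loci in each library, as log10(FPKM + 0.01) on the y axis and libraries on the x axis; boxes span the quartiles with the median line, whiskers reach 1.5 times the box height and dots are loci beyond. The wild-type and heterozygous boxes overlap throughout, and the knockout medians run from 0.642 FPKM in KO1 to 0.985 FPKM in KO5.

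After the filter on low values (0.5 FPKM in at least 3 of 14 libraries), 222 of the 248 were tested, and 215 of them were called higher in knockout than in wild-type heads, against 19.0% of all loci. The rule fixed this contrast, so nothing is read from the count. Quantile normalization of the libraries lowered it to 143. In 198 of the 248 every knockout library stood above every wild-type library (15.3% of all loci tested; the reverse, every wild-type library above, held for 1.99%), and the same number stood above every heterozygous library (17.7%). Against heterozygous heads, 207 were called higher in the knockout and none lower (17.9% and 4.36% of all loci). The rule chose the members as high in these same knockout libraries, so nothing is read from this count either. The heterozygous libraries were not used by the rule.

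None of the 222 tested loci was called higher or lower in heterozygous than in wild-type heads by limma-trend, where 0.00549% of all loci (1 of 18217) were called higher. Over all loci that number was 0 without any 1 of the heterozygous libraries and 2 without KO1, WT1 or WT3. At an unadjusted p under 0.05, 7 of the 222 were higher and 1 lower, beside 0.845% and 1.1% of all loci (154 and 200). The median difference was 0.02 on the log2(FPKM + 0.1) scale, and for 175 of the 222 the upper end of the 95% interval lay under 1. Zcchc8 itself, at -0.62 with an unadjusted p of 0.00356 (limma-trend), was not called in this comparison either. The member medians, 0.0601 FPKM in wild type and 0.0647 in heterozygous heads, lay under the 0.1 FPKM added before the log. The lack of calls therefore does not show that heterozygous heads had no gain. Of the 248, 4 had every heterozygous library above every wild-type library (1.05% of all loci tested). The largest differences were 1.30 for the Ino80 locus (SE 0.59), 1.27 for Itga10 (SE 0.49), 1.19 for Acad8 (SE 1.0) and 1.06 for Exd2 (SE 0.26), all with an adjusted p of 1. Leaving out 1 library moved the first 3 by over 1.5 times: Ino80 was 0.86 without HET5 and 2.14 without HET3, Itga10 0.63 without HET4 and 1.92 without HET3, and Acad8 0 without HET3, the only heterozygous library above 0 there. By the same limits turned around, 249 eligible loci were under 0.2 FPKM in heterozygous and at least 0.5 in knockout heads, 24 were under 0.2 in wild type and at least 0.5 in heterozygous heads, and 22 were under 0.2 in knockout and at least 0.5 in wild-type heads. In all of these 22 but Abca8a and Cntnap5c the wild-type SD was larger than the mean, as for Rbpj (2.21 ± 4.94 FPKM). Their wild-type means were thus uneven between libraries.

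The 14 loci with the highest knockout level were mostly opposite-strand loci of genes that are well expressed in the head. Wdr1, which promotes actin filament disassembly with cofilin, had the highest. Its gained locus (chr5:38525002-38564735) read 0.0345, 0.0297, 0.119, 0.0757 and 0.0757 FPKM in WT1 to WT5 and 0.0788, 0.0171 and 0.0657 in HET3 to HET5, and 4.65 to 8.41 with a median of 7.01 in the knockout. All knockout libraries were far above all others, and the means differed 104-fold. The Wdr1 partner on the gene's own strand was 66.3 ± 2.96 FPKM in wild type and 58.9 ± 3.67 in knockout heads, a fall by 0.17 on the log2 scale (SE 0.05, adjusted p = 0.0141, limma-trend) that was -0.04 and not called on the authors' deposited matrix.

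Tmem39b encodes a membrane protein of the endoplasmic reticulum. Its opposite-strand locus (chr4:129676355-129697362) was at 0 in all wild-type and heterozygous libraries but WT4 (0.0461 FPKM) and at 4.84 to 7.03 FPKM, median 6.15, in the knockout. The groups did not overlap, and the partner was 16.8 ± 0.824 and 16.6 ± 1.27 FPKM. For Gtf2i, the transcription factor TFII-I, the opposite-strand locus (chr5:134237834-134316349) was 0.021 to 0.0873 FPKM in wild type, 0.0275 to 0.0665 in heterozygous heads and 4.54 to 5.95 (median 5.33) in knockout heads. The Gtf2i partner stood at 138 FPKM in both groups, with a difference between -0.07 and 0.07 (95% interval, log2).

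The locus named a, for agouti signalling protein, which switches pigment cells to yellow pigment, lay opposite to a locus that joins Raly, an RNA-binding protein, and agouti. It read 0 to 0.0412 FPKM in wild type, 0 to 0.0185 in heterozygous heads, and in the knockout 2.49 in KO1 and 4.67 to 5.34 in the other libraries. The joint locus was 238 FPKM in wild type and 232 in the knockout. Zcchc11, a terminal uridylyltransferase that adds tails to RNAs, had an opposite-strand locus at 0 to 0.144 FPKM in wild type, 0 to 0.0445 in heterozygous heads and 3.31 to 5.25 (median 3.82) in the knockout. The Zcchc11 partner was 51.5 and 54.6 FPKM. The opposite-strand locus of 2810403A07Rik was the least quiet of these in wild type, 0 to 0.398 FPKM, and reached 2.66 to 5.49 FPKM in the knockout.

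**Figure D3:**
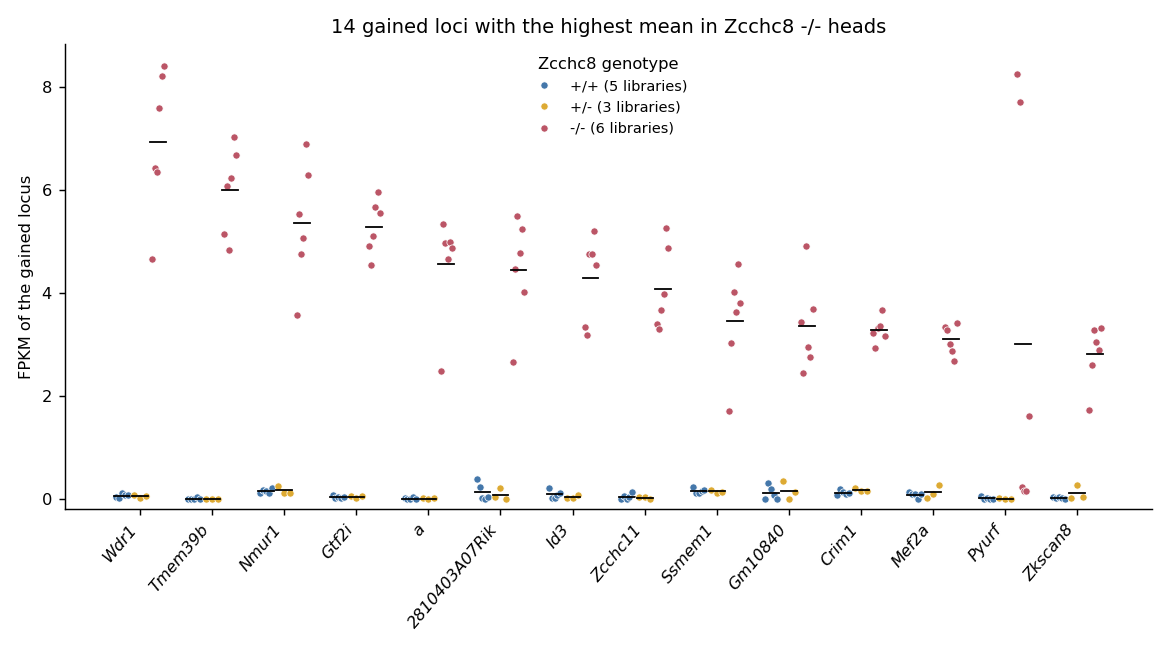
FPKM (y axis, linear) of the 14 gained loci with the highest knockout mean (x axis) in every library, coloured by Zcchc8 genotype; black lines are group means. All wild-type and heterozygous points lie under 0.4 FPKM; Pyurf is the locus whose knockout libraries are most spread, with KO1 and KO2 at 8.25 and 7.70.

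Genes that act in patterning and differentiation were among those with an opposite-strand gained locus, here named after their values were seen. Id3, which blocks basic helix-loop-helix factors, had its gained locus at 0.219, 0.0312, 0.02, 0.0831 and 0.125 FPKM in WT1 to WT5, at 0.0181, 0.0285 and 0.0898 in the heterozygous libraries, and at 3.18 to 5.20 (median 4.65) in the knockout. Its range (chr4:136139138-136145755) reached 4359 bases past the annotated 5′ end, and 2782 bases to the left of it an unnamed locus on the same strand as the gained Id3 locus rose from 0.0515 to 5.81 FPKM (adjusted p = 2.2e-12, limma-trend). The Id3 partner was 135 ± 9.21 FPKM in wild type and 139 ± 31.4 in the knockout. Mef2a, a MADS-box factor of muscle and neurons, had 0 to 0.142 FPKM in wild type and 2.69 to 3.43 in the knockout, with its partner at 12.9 and 12 FPKM. Tbx15, a T-box factor of the skeleton and skin, went from 0.0114 to 0.155 FPKM in wild type to 1.61 to 3.02 in the knockout, with its partner at 19.3 and 17.5. Msx2, a homeobox factor of skull and tooth, had 0.0123 to 0.0875 and 0.728 to 2.17 FPKM, with its partner at 10.5 and 11.8. Crim1, a membrane protein that binds bone morphogenetic proteins, gave the tightest values: 3.28 ± 0.246 FPKM in the knockout (n = 6) against 0.128 ± 0.0421 in wild type (n = 5), with its partner at 6.57 and 6.68.

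Loci of 3 genes of the p53 circuit were also gained, again named after their values were seen. Mdm2 is the ubiquitin ligase that keeps p53 low, Mdm4 is its relative that inhibits p53, and Trp53inp1 is a p53 target. The opposite-strand locus of Trp53inp1 was 0 to 0.0214 FPKM in wild type, 0.00816 to 0.0438 in heterozygous and 1.56 to 2.84 in knockout heads, that of Mdm2 was 0.00863 to 0.0357, 0 to 0.0478 and 1.14 to 1.93, and that of Mdm4 was 0 to 0.0699, 0.0326 to 0.0655 and 0.399 to 0.959. None of the groups overlapped between wild type and knockout. This also held for 198 of the 248 gained loci, beside 15.3% of all loci tested, and follows largely from the rule. The partners of Trp53inp1 (16.2 and 15.9 FPKM) and Mdm2 (26.3 and 25.7 FPKM) differed by -0.03 each on the log2 scale, with 95% intervals of -0.18 to 0.11 and -0.16 to 0.09. The partner of Mdm4 (22.2 and 20.2 FPKM) differed by -0.15, with an interval of -0.45 to 0.15.

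The partners, whose values the rule did not use, were mostly not called. Of 213 partner loci that were not themselves gained, 200 were tested, 11 were called higher and 13 lower in knockout than in wild-type heads (5.50% and 6.50%), beside 19.0% and 5.61% of all loci and 7.07% and 7.42% of the 11880 protein-coding loci tested. Their median was 15.8 FPKM in wild type, 15.9 in heterozygous and 15.6 in knockout heads, and the median difference was -0.03 (log2), beside -0.0019 over all loci. For 179 of the 200 the 95% interval lay within -0.5 and 0.5. In wild type 193 of the 217 partners, gained ones included, were at 1 FPKM or more and 149 at 10 or more. Among opposite-strand loci whose partner reached 1 FPKM in the knockout, 176 in all, the gained locus stood at a median of 5.61% of its partner (quartiles 2.58% and 12.1%), and 1 exceeded it. The count of lower partners was 6 without KO4 or WT2, 7 without KO1 or WT4 and 8 without HET4, KO6 or WT3. These calls depend on the table and scaling. With the authors' deposited log2 matrix, on which 17141 loci were tested, the median of all loci was 0.20, 93 of the 200 partners were called higher and none lower, and the partners' median stood 0.03 below that of all loci, as it did on the FPKM scale. With quantile normalization of the log2(FPKM + 0.1) values the median of all loci was -0.05, 9 partners were called higher and 19 lower, and the partners' median stood 0.02 above that of all loci.

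**Figure D4:**
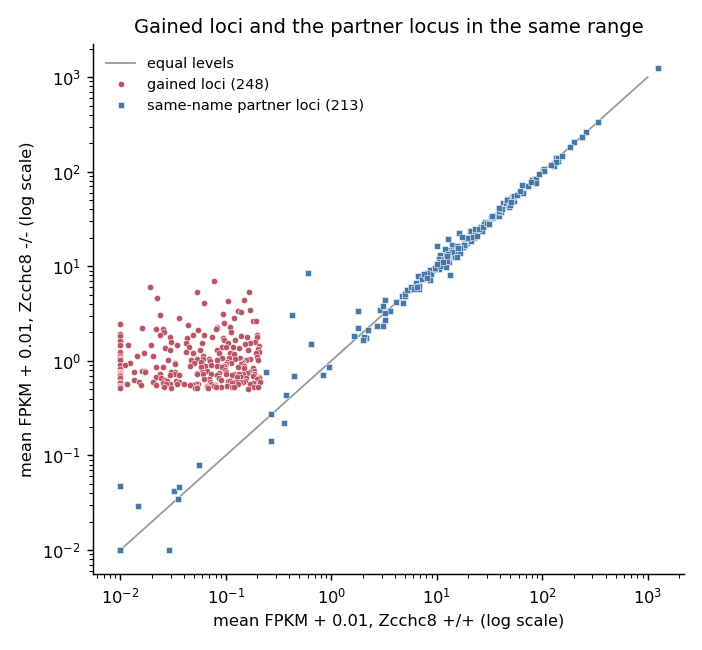
Mean FPKM + 0.01 in knockout (y axis) against wild-type heads (x axis), both on log scales, for the 248 gained loci (circles) and their 213 same-name partner loci (squares); the line marks equal levels. The partners lie along the line around medians of 15.8 and 15.6 FPKM, apart from a few low ones, whereas the gained loci lie above it, as the rule requires.

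The partners that did pass the test were few. The largest rise was on the other strand of Cpb2, a plasma carboxypeptidase that restrains clot lysis. There the opposite-strand locus rose from 0.590 ± 0.358 to 8.47 ± 2.13 FPKM (log2 difference 3.77, SE 0.34, adjusted p = 3.9e-07, limma-trend), while the own-strand locus, the gained member, was 0 to 0.0429 FPKM in wild type and 0.251 to 1.05 in the knockout. Cstad, a small mitochondrial protein, rose on its own strand from 0.419 to 3.03 FPKM (log2 difference 2.59, SE 0.17, adjusted p = 1.0e-08), and its opposite-strand locus went from 0.00363 to 0.750 FPKM. The partners of Zic4 (12.8 to 19.2 FPKM, adjusted p = 0.00167) and Zic5 (10.1 to 16.2 FPKM, adjusted p = 1.0e-04), zinc finger factors of the dorsal neural tube, and of Dmrt1 (0.228 to 0.752 FPKM, adjusted p = 1.4e-04), a gonadal factor, were also higher by limma-trend. The 13 lower partners fell by 0.14 to 0.41 on the log2 scale, the most in Cygb, a globin, from 3.11 to 2.31 FPKM.

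Other loci within 10 kb were mostly not called. Of 1205 loci near a gained locus that were no members, partners included, 605 were tested. Of these 82 were higher and 33 lower in the knockout (13.6% and 5.45%), beside 19.0% and 5.61% of all loci. Without the partners, 405 of 992 were tested, and 71 were higher and 20 lower. Those shares, 17.5% and 4.94%, were near the shares of all loci. Among 34 unnamed ones tested, 25 were higher and none lower by limma-trend, beside 65.7% and 0.449% of all 2004 unnamed loci tested. At an unadjusted p under 0.05 these were 26 and none, beside 70.3% and 0.948%. Of 262 coding neighbours of another name 15 were higher and 13 lower, shares of 5.73% and 4.96%, beside 7.07% and 7.42% of all coding loci tested. On the authors' deposited matrix 236 neighbours, partners included, were higher and 5 lower, beside 6969 and 269 of all 17141 loci tested there. With quantile normalization of the FPKM scale they were 56 and 106, beside 2338 and 3801 of all 18217 loci. The count of lower neighbours was 15 without KO4, 18 without WT2, 19 without WT3, 20 without WT4 and 21 without WT1.

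Loci on the gene's own strand were 36, and for the 30 that were sole no other locus carried the name. Nmur1, a receptor for the peptide neuromedin U, was the highest. Its locus (chr1:86386303-86444795) read 0.123, 0.170, 0.158, 0.111 and 0.214 FPKM in WT1 to WT5, 0.264, 0.127 and 0.120 in HET3 to HET5, and 3.56 to 6.89 (median 5.30) in the knockout, with no overlap. The range reached 18567 bases past the annotated 5′ end. The other locus in it, Tex44, on the opposite strand, was 0 in wild type and 0.0127 FPKM in the knockout. Tex22, a testis-expressed gene, was 0 to 0.0391 FPKM in wild type, 0 to 0.0323 in heterozygous heads and 0.984 to 1.73 in the knockout. It was alone in its range (chr12:113074502-113088917), which kept to the annotated gene, and 100 bases to its left ended Pacs2, a sorting protein on the same strand, at 36.0 and 34.9 FPKM.

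Ssmem1, a single-pass membrane protein gene, was 0.114 to 0.243 FPKM in wild type, 0.129 to 0.172 in heterozygous heads and 1.71 to 4.56 in the knockout. On the other strand of the same range, Tmem209 was 25.3 FPKM in wild type and 26.0 in the knockout. Htr3b, a subunit of the serotonin-gated ion channel, was 0.0541 to 0.327 FPKM in wild type, 0.226 to 0.371 in heterozygous heads and 1.08 to 1.51 in the knockout. It was alone in a range that reached 20014 bases past its 5′ end, 370 bases from Usp28, a deubiquitinase on the other strand at 14.4 and 13.7 FPKM. Its start region, printed above, held 1 CG dinucleotide. Vmn1r4, a pheromone receptor of the vomeronasal organ, was 0.10 to 0.359 FPKM in wild type, 0.125 to 0.331 in heterozygous heads and 1.13 to 1.47 in the knockout, in a range shared with Nt5c3, a nucleotidase on the other strand (24.5 and 22.7 FPKM). Gm10840, a predicted gene, was 0 to 0.316 FPKM in wild type and 2.45 to 4.92 in the knockout, inside a range shared with other loci, among them Psmc5, a proteasome subunit on the same strand (109 and 108 FPKM).

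**Figure D5:**
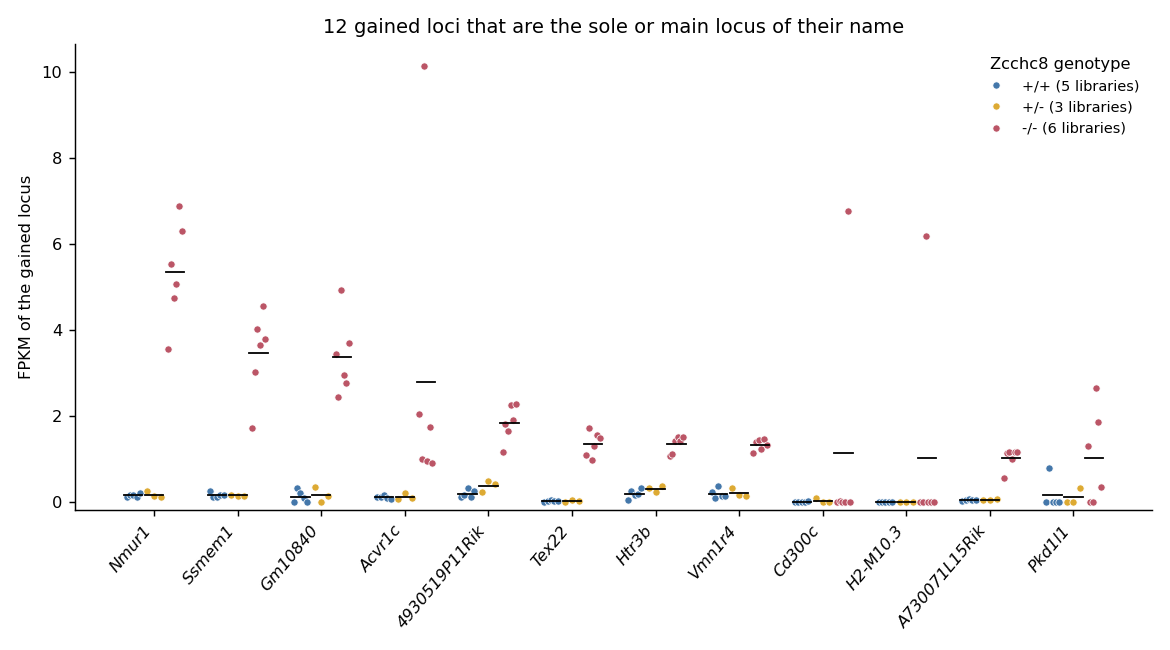
FPKM (y axis, linear) of the 12 gained loci with the highest knockout mean that were the sole or main locus of their name (x axis), in every library, coloured by Zcchc8 genotype; black lines are group means. Nmur1 is high in all 6 knockout libraries (3.56 to 6.89), whereas Cd300c (KO5, 6.76) and H2-M10.3 (KO3, 6.19) are each high in a single library. Acvr1c is highest in KO3 (10.1) and 0.893 to 2.05 in the other knockout libraries, all above wild type.

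For 2 names the loci of both strands were gained. Smc1b, a cohesin subunit of meiosis, went from 0.134 to 0.720 FPKM on its own strand and from 0 to 1.91 on the other. Ppp1r27, a regulatory subunit of protein phosphatase, went from 0.0366 to 0.999 FPKM on its own strand and from 0.00354 to 0.618 on the other. Ddi2 and Plekhm2, Igfbp5 and Igfbp2, and Vopp1 and Pyurf were pairs of neighbours within 10 kb that both had a gained opposite-strand locus. In the Igfbp5 and Igfbp2 pair, which encode binding proteins of insulin-like growth factors, these loci went from 0.0732 to 1.31 and from 0.125 to 0.722 FPKM.

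The 20 gained loci with no strand had partners at a median of 20.2 FPKM in wild type and 21.3 in the knockout. The highest belonged to Trim28, a corepressor that recruits silencing machinery, at 0.064 to 0.149 FPKM in wild type, 0.0948 to 0.202 in heterozygous heads and 1.72 to 2.85 in the knockout. The groups were apart, and the Trim28 partner was 341 ± 11.8 and 334 ± 20.3 FPKM. The locus of Zic4 went from 0.068 to 0.172 FPKM in wild type to 0.810 to 2.48 in the knockout.

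The knockout libraries did not share the gain evenly at every locus. In 27 of the 248, 1 library held over 50% of the summed knockout level, and KO3 was that library in 14, KO1 in 4, KO5 in 3 and KO2, KO4 and KO6 in 2 each. These were 22 opposite-strand and 5 own-strand loci, and 13 were at 0 in all other knockout libraries. In 1 of the 27, Acvr1c, every knockout library still stood above every wild-type library. Cd300c, an immune receptor, was 6.76 FPKM in KO5 and at most 0.0183 in the other knockout libraries. H2-M10.3, a class Ib histocompatibility gene, was 6.19 FPKM in KO3 and 0 in the other 13 libraries. Leaving out these 27 leaves 221 loci. Of Apob, the main protein of low-density lipoprotein, the opposite-strand locus was 5.15 FPKM in HET3, 3.09 in KO6 and 0 elsewhere, and that of Bpi, a bactericidal protein of neutrophils, was 8.67 in KO3, 2.08 in HET4 and 0 elsewhere. Apob and Bpi were the only members with a heterozygous mean of at least 0.5 FPKM, while 228 of the 248 had a heterozygous mean under 0.2. Pyurf was spread in another way, with 8.25 FPKM in KO1, 7.70 in KO2, 1.62 in KO6 and 0.153 to 0.231 in the other knockout libraries.

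Close to the limits of the rule, Gltpd2 (0.5002), Pam (0.5008), Ptgr2 (0.502) and Ahcyl2 (0.505) were the loci with the lowest knockout means inside it, in FPKM, and Ebf4 (0.4994), Btf3l4 (0.499), Slc4a9 (0.498) and Sec22c (0.498) the highest outside it. On the wild-type side Rnf39 (0.199), Slc1a4 (0.199), Nol8 (0.198) and Disc1 (0.196) were the highest inside, and Teddm2 (0.201), Zbtb32 (0.201), Uvssa (0.203) and Kcnj10 (0.204) the lowest outside.

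Genes of the machinery that NEXT works with were mostly not called on the FPKM scale, where 5 of 58 tested passed. On the authors' deposited matrix 32 of the 58 were called higher and 1 lower, with list medians of 0.15 to 0.19 beside 0.20 over all loci, and with quantile normalization of the FPKM scale 6 and 1. The values that follow are on the FPKM scale. Of 13 RNA exosome genes tested none was called, higher or lower, by limma-trend, and none had an unadjusted p under 0.05 (median log2 difference -0.01). Of the 3 NEXT genes only Zcchc8 fell, while Rbm7 was 29.4 and 29.2 FPKM and Skiv2l2 37.0 and 37.7. Of 8 adaptor genes (cap-binding, PAXT and TRAMP components) 1 rose, Srrt, the cap-binding partner Ars2, from 116 to 143 FPKM. Of 20 genes of 3′ end cleavage and termination 2 rose and none fell: Pcf11, a termination factor, from 18.9 to 27.8 FPKM (adjusted p = 6.3e-05, limma-trend) and Cstf3, a cleavage stimulation subunit, from 26.4 to 30.8 FPKM (adjusted p = 0.0163). Of 14 Integrator genes 1 fell, Ints10, from 25.4 to 22.8 FPKM. The medians of these lists lay between -0.01 and 0.05, beside -0.0019 over all loci.

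Markers of other cell types were read in the same libraries. Lens markers summed to 87.9 to 121 FPKM in wild type, 98.7 to 153 in heterozygous and 26.7 to 124 in knockout heads, and 2 of 3 tested fell (Crybb1 and Cryba1). Skeletal muscle markers summed to 24.2 to 45.8, 29.2 to 38.6 and 6.13 to 38.3 FPKM, and 1 of 3 tested fell (Actn2). Red blood cell markers summed to 4865 to 8857, 5696 to 9451 and 6955 to 9574 FPKM. Liver, heart, germ cell, gut and lung, immune and olfactory markers gave no call, but many of them did not pass the filter. Those tested were 1 of 6, 2 of 6, 2 of 5, 1 of 5, 2 of 5 and 2 of 3 in that order. Germ cell markers, relevant to names such as Tex22, Boll and Smc1b, summed to 1.18 to 1.56, 0.713 to 1.47 and 0.978 to 2.08 FPKM. Of the photoreceptor markers only Nrl was tested, which is itself a gained locus (0.104 to 0.701 FPKM), while Crx was at 0.0992 FPKM in wild type and 0.145 in the knockout. Trophoblast markers, none of which passed the filter, summed to at most 0.122 FPKM in any library. No marker was at 0 in all 14 libraries in these lists. The part of these cell types in the gained loci was not tested.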

How the data were processed

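Poly(A)-selected RNA of 14 heads (5 wild type, 3 heterozygous, 6 knockout) was analysed from the FPKM tables the authors deposited, 1 per library, and from their log2 matrix, which by its values is quantile normalized. Cuffdiff, Partek, TopHat2 2.1.0, FastQC 0.10.0 and bcl2fastq and the build mm10 are listed, without roles, per the submitters' processing notes; no source used here states the read totals. Loci at 0.5 FPKM or more in at least 3 libraries (18217) were tested on log2(FPKM + 0.1), a scale that understates changes of low loci, with robust limma-trend (limma 3.58.1, R 4.3.3) over all 14 libraries, Benjamini-Hochberg adjusted at 0.05; group levels are means with SD. The fit was tested on simulated data, with normal noise of the wild-type spread in all groups. It recovered 73% of changes of 0.5 and 95% of changes of 2 (log2), with 11 false calls. The simulation held no values raised in a single library and no shift of scale between genotypes, so it does not cover these. Gene strand and ends came from GENCODE M21, start regions from RefSeq. P-values measure the spread between these libraries. Members, gene lists and tests were chosen with earlier results of these data known. Named loci are the 14 highest in the knockout, the 12 highest sole or main loci, those with no locus within 10 kb, the 6 highest in heterozygous heads and the 4 nearest each side of each limit; genes outside these were chosen after their values were seen. Calls of red blood cell markers and a few single loci are not reported here.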

Additional observations from a re-analysis of the deposited data

Results flagged for a closer look

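In 74 groups of named members, 9 held a library whose gap to the nearest other library passed Dixon's limit, which chance passes in about 1 in 20 groups. That rate is no yardstick here, since the loci were chosen by their wild-type and knockout means, and for Cd300c, H2-M10.3, Bpi and Apob the mean reaches 0.5 FPKM only through the library named. In knockout heads the locus a was low in KO1 (2.49 FPKM, others 4.67 to 5.34), as were A730071L15Rik in KO1 (0.562, others 0.990 to 1.17) and Nol8 in KO4 (0.835, others 1.23 to 1.38). Acvr1c was high in KO3 (10.1 FPKM, others 0.893 to 2.05), and so were H2-M10.3 (6.19) and Bpi (8.67) in KO3, Cd300c in KO5 (6.76) and Apob in KO6 (3.09), with the other knockout libraries at 0 or, for Cd300c, at most 0.0183. In wild type Pkd1l1 was 0.792 FPKM in WT2 and 0 in the others. The part of library or embryo in these values was not tested.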

How the results depend on the processing

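Of the counts below, the main value stands in the report and each other setting changes 1 choice, except the authors' deposited matrix, which has its own scaling and blank cells and on which fewer loci could be tested (17141, with 171 of the members). Members higher in knockout than in wild type numbered 143 with quantile normalization and 96 when loci had to reach 1 FPKM in 3 libraries, which removes members from the test; against heterozygous heads they numbered 129 and 96. On the authors' deposited matrix, neighbours (partners included) called higher and lower numbered 236 and 5, partners 93 and 0, all loci 6969 and 269, and list genes 33. Quantile normalization gave 106 lower neighbours and 3801 lower loci, and the stricter filter 2265 higher loci. Lower neighbours numbered 17 with no filter and 18 when only knockout and wild-type libraries were fitted, and lower partners 6 under each. Loci called between heterozygous and wild-type heads, 1 in the report, numbered 2 with no filter, 3 when only those libraries were fitted, 2 with quantile normalization and 0 with a pseudocount of 0.5 or 1 and with the stricter filter. Setting the knockout limit at a mean of 1 FPKM left 101 members. Leaving out each library in turn gave 15 to 41 lower neighbours, 667 to 1225 lower loci, 6 to 15 lower partners, 0 to 2 heterozygous calls, 4 to 7 list calls and 240 to 260 members. Same-numbered libraries did not deviate together (correlations of -0.11 to 0.10), so the numbers do not pair samples; with the replicate number as a block there were 17 lower neighbours, 645 lower loci, 6 lower partners and 0 heterozygous calls, and 210 members higher. Among the named members and their partners, the direction turned for the partners of Tmem39b (0.20), Pam (0.011) and Slc1a4 (0.073) on the authors' matrix. With quantile normalization it turned for the Rnf39 locus (-0.35). Other members were not checked singly for this. Over all tested members, quantile normalization gave a lowest difference of -0.65 and a median of 1.21, beside 0.90 and 2.62 in the main setting. The cause was not tested. The overlap of members with exons was not run, since the tables give no position within a range. Values near 0.1 FPKM rest on few fragments, so wild-type levels of single loci are not precise.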
